A study of Mus musculus with 36 samples.

Results

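The simple-epithelium keratins examined here are 6 genes, Krt7, Krt8, Krt18, Krt19, Krt20 and Krt23, followed through all 36 RNA-seq libraries of a study on plakophilin 4 (PKP4) in mouse keratinocytes. They are 6 of the 55358 genes counted. They were chosen by name, with earlier results of the same data known. Among those results was the level of Krt20 in PKP4-KO cells, which was below that in WT cells in all 4 culture conditions. The differences between PKP4-KO and WT are therefore given as a description, without p-values, and nothing is read from the calls counted in that contrast.

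Keratins form the intermediate filaments of epithelial cells, and each filament is built from pairs of a type II and a type I chain. Krt8 (type II) and Krt18 (type I) are the classic pair of single-layered epithelia such as liver and intestine, whereas epidermal keratinocytes rely on Krt5 and Krt14 in the basal layer and on Krt1 and Krt10 above it. Krt7 (type II) and Krt19 (type I) are known from ducts and glands, and Krt19 also from hair follicle bulge cells. Krt20 (type I) is known from intestine, urothelium and Merkel cells. Krt23 is a type I keratin whose role is less well understood.

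The study compared 3 genotypes. WT keratinocytes were isolated from Pkp4+/+ newborn pups, and PKP4-KO keratinocytes from Pkp4-/- pups that carry a Pkp4 allele without its critical exon, on a C57BL/6 J background. Rescue cells are PKP4-KO keratinocytes that were transduced with a lentivirus for human PKP4 carrying an EGFP tag and then selected with puromycin as a stable line; whether that line is 1 clone or a pool is not given in the sources used here. No line with EGFP alone is among these libraries, so that the transgene and the transduction with selection cannot be told apart. All cells grew on collagen I, for 24 h or 72 h, either in low calcium medium (LCM) or in LCM with added CaCl2 (HCM), which induces junction formation and differentiation. The sample titles carry LD for the libraries taken as 24 h and HD for those taken as 72 h. Each of the 12 groups had 3 libraries, described in the labels as biological replicates. Whether they came from separate pups or from separate dishes is not given in the sources used here. The p-values measure the spread between libraries of the same group, estimated over all 12 groups together.

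The libraries held between 13602728 and 22467187 counts, with a median of 17353519.5, and all 6 keratins passed the filter on low counts. Krt18 passed it only through Rescue at 72 h HCM, where it had 28, 26 and 23 counts. Endogenous Pkp4 had 326 to 1443 counts in WT, 44 to 232 in PKP4-KO and 101 to 273 in Rescue libraries, and the GFP-PKP4 sequence had 1902 to 15325 counts in Rescue and at most 113 elsewhere. The cells also differed in genes of the sex chromosomes. Xist, transcribed from the inactive X chromosome of female cells, had 350 to 1385 counts in WT, 0 to 13 in PKP4-KO and 0 to 37 in Rescue. The Y-linked genes Eif2s3y, Kdm5d, Ddx3y and Uty summed to 37 to 238 counts in every Rescue library, to 0 to 12 in WT and to 0 to 3 in PKP4-KO. Reads of Y-linked genes were thus present in Rescue and at or near 0 in the PKP4-KO libraries, although Rescue cells are described as PKP4-KO cells with a transgene. Between genotypes, Pkp4, the transgene and the origin of the cells cannot be told apart.

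Krt7, Krt8 and Krt18 lie on chromosome 15 and Krt19, Krt20 and Krt23 on chromosome 11 of GRCm39, at chr15:101308924-101328194 (forward strand), chr15:101905133-101912917 (reverse), chr15:101936615-101940462 (forward), chr11:100031636-100039491 (reverse), chr11:99319227-99328985 (reverse) and chr11:99366873-99383963 (reverse). The 250 bases before the annotated start of the canonical transcript are shown for the 3 members on which the results turn: Krt7, which was 27.2- to 50.1-fold higher in Rescue than in WT, Krt20, which was nearly absent from PKP4-KO cells, and Krt23, which changed most often with medium and time. They were read from GRCm39 in the direction of the gene and end at the base before the start, and capitals mark matches to 7 motifs searched on both strands.

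Krt7: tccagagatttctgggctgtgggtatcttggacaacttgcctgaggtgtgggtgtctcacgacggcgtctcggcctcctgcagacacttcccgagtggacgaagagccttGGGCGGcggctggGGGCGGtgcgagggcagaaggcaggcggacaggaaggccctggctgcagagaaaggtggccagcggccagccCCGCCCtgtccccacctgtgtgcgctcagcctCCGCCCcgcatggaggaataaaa
Krt20: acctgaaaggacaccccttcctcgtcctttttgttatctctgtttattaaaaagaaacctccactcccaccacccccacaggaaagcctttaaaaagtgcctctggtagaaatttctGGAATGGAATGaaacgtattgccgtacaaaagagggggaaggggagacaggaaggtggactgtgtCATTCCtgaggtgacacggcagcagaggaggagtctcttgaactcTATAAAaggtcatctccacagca
Krt23: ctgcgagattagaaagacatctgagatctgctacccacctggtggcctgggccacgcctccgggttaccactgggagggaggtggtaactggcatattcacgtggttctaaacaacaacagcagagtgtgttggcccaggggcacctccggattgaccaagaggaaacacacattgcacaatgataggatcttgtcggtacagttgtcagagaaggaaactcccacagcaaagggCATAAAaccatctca

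The Krt7 stretch (chr15:101310033-101310282, forward strand) is the richest in G and C of the 6, with 65.6%, and holds 4 matches to the GC box GGGCGG, 2 on each strand. At least 1 GC box was found in 36.3% of the 21770 promoters of the same length. It lies within the span of Krt7, because 3 of the 5 annotated transcripts of the gene start upstream of the canonical one. The Krt20 stretch (chr11:99328986-99329235, reverse strand, 47.2% G and C) holds the TATA box TATAAA 23 to 18 bases before the start and 3 matches to the TEAD core GGAATG, 2 of which overlap by 1 base. A TATA box was found in 11.9% of all promoters and a TEAD core in 12.1%. The Krt23 stretch (chr11:99383964-99384213, reverse strand, 52.0% G and C) holds 1 match to the CDX core TTTATG on the opposite strand, a motif found in 10% of promoters.

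The same stretch of Krt19 (50% G and C) had 1 GC box, and those of Krt8 (50.8%) and Krt18 (58.4%) held none of the 7 motifs. The AP-1 site TGANTCA (6.17% of all promoters), the CCAAT box CCAAT (36.5%) and the GRHL core AACNNGTT (3.73%) had no match in any of the 6, which says only that these letters are not in these windows. A match describes the letters and is not a bound site.

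**Figure D1:**
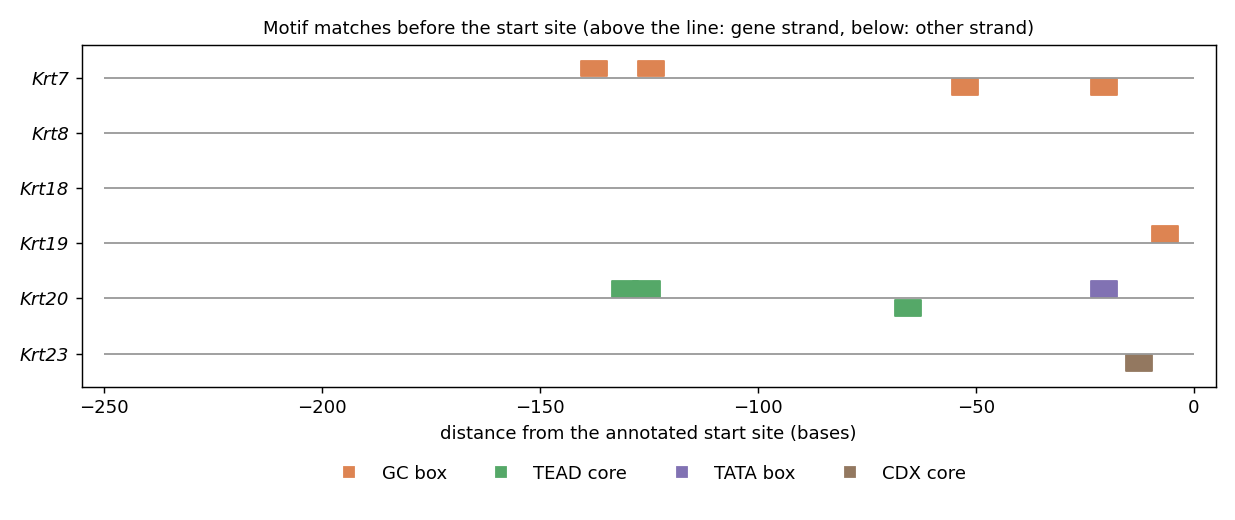
Map of the motif matches in the 250 bases before the annotated start site of each simple-epithelium keratin; the horizontal axis gives the distance from the start in bases, boxes above a line lie on the strand of the gene and boxes below it on the other strand. Krt7 holds 4 GC boxes and Krt20 a TATA box and 3 TEAD cores, 2 of which overlap, whereas Krt8 and Krt18 hold no match.

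Levels are given as counts per library and as CPM, counts relative to library size, scaled with TMM factors, and a floor of 3 counts, which corresponds to 0.110 to 0.436 scaled CPM, served as the limit of detection. Floors cover counting error only. Levels are mean ± SD of the 3 libraries of a group throughout. Krt7 and Krt23 carried most of the reads of the 6 keratins, and Krt18 hardly any. In bulk RNA, fewer cells expressing a gene and less RNA of it per cell cannot be told apart.

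**Figure D2:**
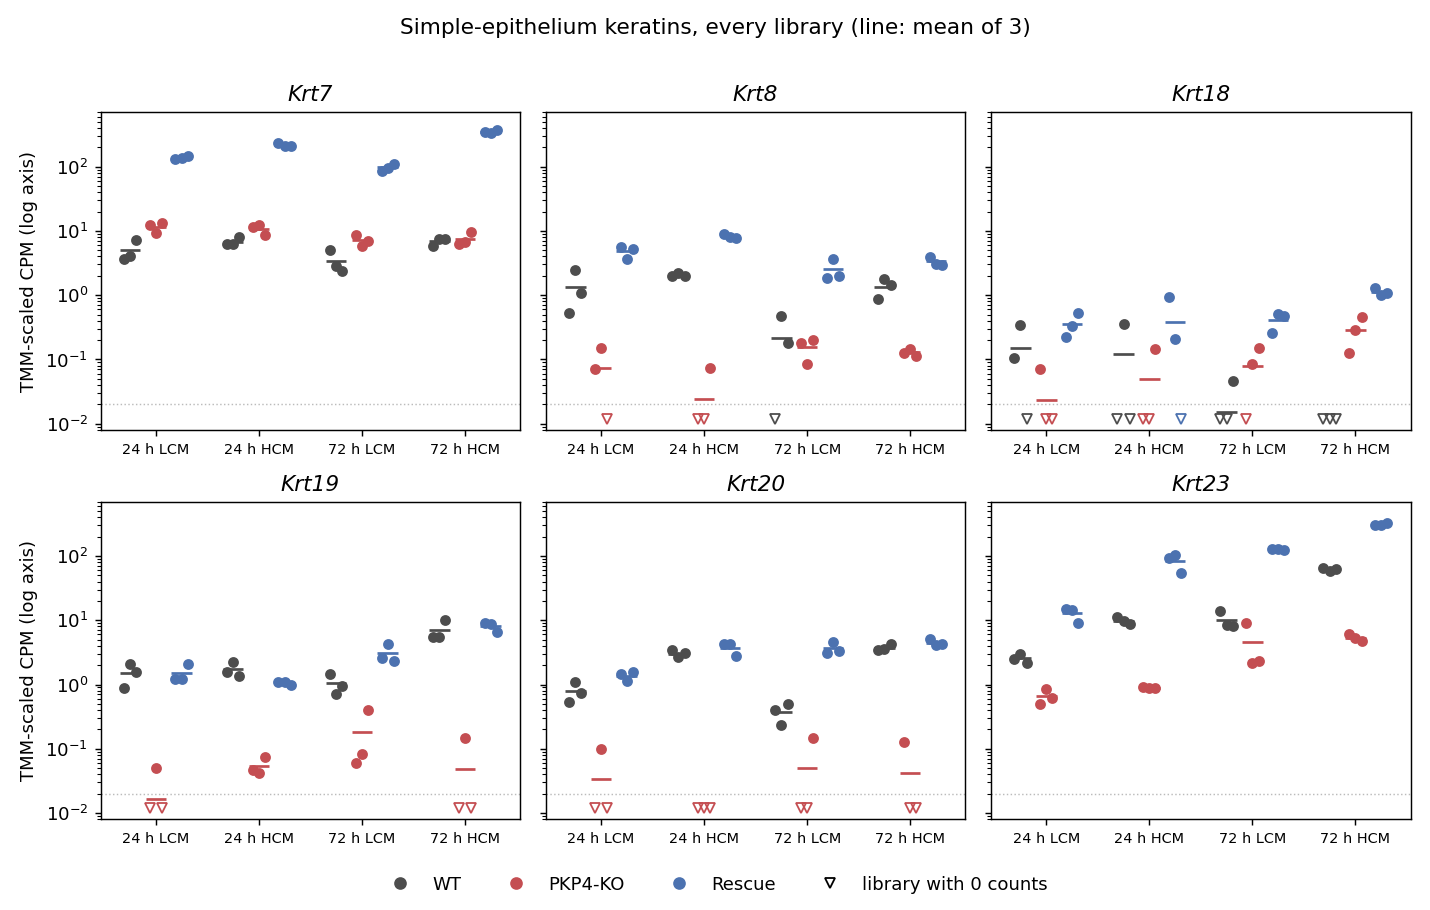
Level of the 6 simple-epithelium keratins in every library, in TMM-scaled CPM on a log axis, by culture condition on the horizontal axis; dots are libraries, short lines the mean of 3, and open triangles under the dotted line libraries with 0 counts. Krt7 of Rescue cells lies between 86.1 and 367 CPM, above all WT and PKP4-KO libraries, and Krt20 of PKP4-KO cells lies at 3 counts or fewer throughout.

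Krt7 stood out for its level in Rescue cells. WT libraries held 70, 71 and 140 counts at 24 h LCM, 121, 87 and 155 at 24 h HCM, 99, 73 and 53 at 72 h LCM and 100, 127 and 72 at 72 h HCM. PKP4-KO libraries held 177, 185 and 283 counts at 24 h LCM, 248, 291 and 115 at 24 h HCM, 143, 69 and 138 at 72 h LCM and 50, 46 and 84 at 72 h HCM. Rescue libraries held 2898, 3254 and 2223 counts at 24 h LCM, 3969, 3979 and 4273 at 24 h HCM, 2351, 1300 and 2068 at 72 h LCM and 7423, 8447 and 7713 at 72 h HCM. Every Rescue library thus exceeded every library of the other genotypes. On the scaled level, Krt7 reached 137 ± 7.19 CPM in Rescue against 5.04 ± 1.96 in WT at 24 h LCM, and 346 ± 19.1 against 6.91 ± 0.875 at 72 h HCM. Rescue was 27.2-fold above WT at 24 h LCM, 32.0-fold at 24 h HCM, 28.3-fold at 72 h LCM and 50.1-fold at 72 h HCM, with fitted log2 fold changes of 4.76 ± 0.26 (SE), 5.0 ± 0.26, 4.83 ± 0.26 and 5.65 ± 0.27. The adjusted p-values of edgeR's quasi-likelihood test were 1.29e-13, 8.76e-14, 4.52e-14 and 8.22e-15.

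Between PKP4-KO and WT, Krt7 differed little beside this. Its mean was 2.31-fold higher in PKP4-KO at 24 h LCM, 1.58-fold at 24 h HCM and 2.08-fold at 72 h LCM, with separated libraries, and 1.09-fold higher with overlapping libraries at 72 h HCM. The last value depended on the scaling: without TMM factors the log2 fold change was -0.63, as the 3 PKP4-KO libraries at 72 h HCM had TMM factors between 0.481 and 0.546 and all others at least 0.705. It was also negative, at -0.09, without PKP4-KO replicate 3. The log2 fold change at 24 h HCM, 0.66 ± 0.23, no longer passed the threshold of 0.05 without 1 of 4 libraries, WT replicate 1 or 2 or PKP4-KO replicate 1 or 2. Rescue exceeded PKP4-KO 11.8-, 20.2-, 13.6- and 46.1-fold in the same order of conditions. At 72 h HCM the log2 fold change of 5.52 became 6.69 without TMM factors.

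Krt8, the type II partner of Krt18, was detected in WT, nearly absent from PKP4-KO and highest in Rescue. WT libraries held 10, 42 and 21 counts at 24 h LCM, 39, 31 and 39 at 24 h HCM, 0, 12 and 4 at 72 h LCM and 15, 30 and 14 at 72 h HCM. In PKP4-KO, 11 of 12 libraries had 3 counts or fewer, and the highest had 4, at 72 h LCM. Rescue libraries held 124, 89 and 80 counts at 24 h LCM, 157, 150 and 158 at 24 h HCM, 51, 50 and 38 at 72 h LCM and 86, 79 and 63 at 72 h HCM. Rescue lay above WT in every condition without overlap. The scaled level rose 3.58-fold at 24 h LCM (adjusted p = 0.00859), 3.99-fold at 24 h HCM (adjusted p = 0.00414) and 11.5-fold at 72 h LCM (adjusted p = 4.97e-05, edgeR's quasi-likelihood test). Without WT replicate 2 the log2 fold change moved from 3.40 to 4.62 at 72 h LCM, where WT held 0, 12 and 4 counts, and from 1.84 to 2.57 at 24 h LCM. At 72 h HCM it was 2.46-fold higher, with an adjusted p of 0.0503 in the same test. The call at 24 h LCM was lost without WT replicate 1 (adjusted p = 0.0614), which had 10 counts. At 72 h HCM, the adjusted p fell below 0.05 with DESeq2 (0.0147), without TMM factors (0.0101) and with only the groups compared (0.0208).

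For Krt8, the level of PKP4-KO was at least 8.10-fold below WT at 24 h LCM, at least 12.8-fold at 24 h HCM and at least 3.53-fold at 72 h HCM, computed against the floor of 3 counts per library. At 72 h LCM the libraries of both genotypes overlapped, with 3, 1 and 4 counts in PKP4-KO. The sign of the log2 fold change there, -0.48, turned to 0.74 without WT replicate 2. Against the same floor, Rescue exceeded PKP4-KO at least 29.0-, 51.0- and 8.69-fold at 24 h LCM, 24 h HCM and 72 h HCM, and 16.2-fold at 72 h LCM.

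Krt18 hardly exceeded the floor outside Rescue. WT libraries held 2, 6 and 0 counts at 24 h LCM, 0, 5 and 0 at 24 h HCM, 0, 0 and 1 at 72 h LCM and 0 in all 3 at 72 h HCM. PKP4-KO libraries held 0 to 4 counts. Rescue libraries held 5, 8 and 8 counts at 24 h LCM, 16, 4 and 0 at 24 h HCM, 7, 7 and 9 at 72 h LCM and 28, 26 and 23 at 72 h HCM, the only group in which all libraries were above 20 counts. At 72 h, Krt18 rose in Rescue over WT at least 5.15-fold in HCM (adjusted p = 0.00252) and at least 3.07-fold in LCM (adjusted p = 0.0264, edgeR's quasi-likelihood test). Since Krt18 passed the filter on low counts only through Rescue at 72 h HCM, these p-values are given as a description. Without WT replicate 1 or 2 or Rescue replicate 2 or 3, the LCM call was lost, with adjusted p-values from 0.0548 to 0.104. The 2 comparisons at 24 h did not pass the threshold (adjusted p = 0.49 in LCM and 0.34 in HCM, same test). Between PKP4-KO and WT, the 72 h HCM counts of 1, 2 and 4 against 0, 0 and 0 were called higher in PKP4-KO. This call was lost without any 1 of 5 of the 6 libraries compared, the exception being PKP4-KO replicate 1, and no fold is given because the mean count was below the floor. It was also lost without TMM factors.

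Krt19 was detected in all WT and Rescue libraries and was near 0 in PKP4-KO. WT libraries held 17, 36 and 30 counts at 24 h LCM, 30, 31 and 27 at 24 h HCM, 29, 18 and 21 at 72 h LCM and 93, 93 and 99 at 72 h HCM. PKP4-KO libraries held 0, 1 and 0 counts at 24 h LCM, 1, 1 and 1 at 24 h HCM, 1, 1 and 8 at 72 h LCM and 0, 1 and 0 at 72 h HCM. Rescue libraries held 27, 29 and 32 counts at 24 h LCM, 19, 21 and 20 at 24 h HCM, 70, 59 and 45 at 72 h LCM and 194, 221 and 139 at 72 h HCM. No PKP4-KO library reached the lowest WT library of its condition. PKP4-KO was at least 9.07-fold lower at 24 h LCM, at least 10.6-fold at 24 h HCM and at least 18.2-fold at 72 h HCM, and 5.73-fold lower at 72 h LCM. The last log2 fold change moved from -2.34 to -3.75 without PKP4-KO replicate 3, the library with 8 counts. Rescue passed the test against WT only at 72 h LCM, where it was 2.97-fold higher (adjusted p = 0.00497). The log2 fold changes at 24 h LCM, 24 h HCM and 72 h HCM were -0.02 ± 0.42 (SE), -0.67 ± 0.43 and 0.21 ± 0.39, with adjusted p-values of 0.98, 0.30 and 0.70 in edgeR's quasi-likelihood test, and do not show that the levels were equal.

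Krt20, of which a difference between PKP4-KO and WT was known when the genes were chosen, had 3 counts or fewer in each of the 12 PKP4-KO libraries and 0 counts in the 3 at 24 h HCM. WT libraries held 10, 19 and 14 counts at 24 h LCM, 66, 37 and 60 at 24 h HCM, 8, 6 and 11 at 72 h LCM and 58, 60 and 42 at 72 h HCM. Rescue libraries held 32, 27 and 24 counts at 24 h LCM, 73, 82 and 55 at 24 h HCM, 85, 63 and 63 at 72 h LCM and 110, 106 and 89 at 72 h HCM. All WT and Rescue libraries were thus above those of PKP4-KO. Against the floor, PKP4-KO was at least 4.71-fold below WT at 24 h LCM, at least 1.95-fold at 72 h LCM and at least 9.72-fold at 72 h HCM. Rescue passed the test against WT only at 72 h LCM, with a 9.71-fold higher level (adjusted p = 4.49e-06). The other log2 fold changes were 0.80 ± 0.45 (SE) at 24 h LCM, 0.30 ± 0.41 at 24 h HCM and 0.26 ± 0.41 at 72 h HCM (adjusted p = 0.21, 0.67 and 0.64 with edgeR's quasi-likelihood test).

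Krt23 ranged from 7 to 7680 counts. WT libraries held 47, 51 and 42 counts at 24 h LCM, 215, 137 and 170 at 24 h HCM, 281, 214 and 178 at 72 h LCM and 1082, 1000 and 616 at 72 h HCM. PKP4-KO libraries held 7, 17 and 13 counts at 24 h LCM, 20, 21 and 12 at 24 h HCM, 148, 26 and 47 at 72 h LCM and 48, 36 and 42 at 72 h HCM. Rescue libraries held 326, 352 and 138 counts at 24 h LCM, 1595, 1959 and 1088 at 24 h HCM, 3470, 1747 and 2392 at 72 h LCM and 6623, 7680 and 6836 at 72 h HCM. Rescue lay above WT without overlap in every condition. The scaled level rose 5.03-fold at 24 h LCM (adjusted p = 7.35e-06), 8.44-fold at 24 h HCM (adjusted p = 5.64e-08), 12.4-fold at 72 h LCM (adjusted p = 1.53e-09) and 5.01-fold at 72 h HCM (adjusted p = 2.17e-06, edgeR's quasi-likelihood test), to 310 ± 13.4 CPM against 61.9 ± 2.80 in the last.

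In PKP4-KO, Krt23 was 3.91-fold below WT at 24 h LCM, 11-fold at 24 h HCM and 11.5-fold at 72 h HCM, with separated libraries. At 72 h LCM it was 2.26-fold lower with overlapping libraries, since PKP4-KO replicate 1 had 148 counts against 26 and 47 in the others. Without that library the log2 fold change moved from -1.17 to -2.17, and the call was lost without WT replicate 1 (log2 fold change -0.85) and with only the groups compared in the fit (-1.14). Rescue exceeded PKP4-KO 19.7-fold at 24 h LCM, 92.6-fold at 24 h HCM, 28.1-fold at 72 h LCM and 57.8-fold at 72 h HCM. The log2 fold change at 72 h LCM moved from 4.80 to 5.80 without PKP4-KO replicate 1, and that at 72 h HCM from 5.85 to 7.03 without TMM factors. Against WT, that of PKP4-KO at 72 h HCM moved from -3.53 to -4.29 without TMM factors.

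Set side by side, 5 of the 6 keratins were called different between PKP4-KO and WT at 24 h LCM, 5 at 24 h HCM and 5 at 72 h HCM, and 4 were called at 72 h LCM. In the order 24 h LCM, 24 h HCM, 72 h LCM and 72 h HCM, 40.2%, 42.8%, 45.1% and 51.8% of the 15114 tested genes were called. At 72 h HCM, 4 of these 5 were lower in PKP4-KO, where 29.9% of tested genes were called lower. The threshold was an adjusted p of 0.05 over all tested genes, and nothing is read from these counts because results of this contrast were known when the genes were chosen. The median log2 fold change of the 6 was -3.35, -4.16, -0.82 and -3.44, and that of all tested genes between -0.07 and 0.02. Between Rescue and WT, 3 of the 6 were called at 24 h LCM (Krt7, Krt8 and Krt23), the same 3 at 24 h HCM, all 6 at 72 h LCM and 3 at 72 h HCM (Krt7, Krt18 and Krt23), all higher in Rescue. Krt18 was tested only because Rescue at 72 h HCM carried it through the filter, so nothing is read from its calls. In these comparisons 24.8%, 23.2%, 32.4% and 36.2% of tested genes were called, and 13.5%, 11.8%, 17.9% and 19.5% were called higher. The libraries of Rescue and WT did not overlap for 4, 4, 6 and 4 of the 6, against 40.7%, 35.1%, 43.5% and 52.9% of tested genes, and Krt19 at 24 h HCM was the one of these that lay lower in Rescue. The median log2 fold change of the 6 was 1.53, 1.88, 3.52 and 1.81. Between Rescue and PKP4-KO, Krt7, Krt8, Krt19, Krt20 and Krt23 were called higher in Rescue in each of the 4 conditions, where 33.7%, 40.8%, 41.6% and 66.7% of tested genes were called and 18.2%, 21.7%, 23.3% and 37.2% were called higher. These comparisons share libraries with each other and with the contrast known beforehand, so that their values are not independent.

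**Figure D3:**
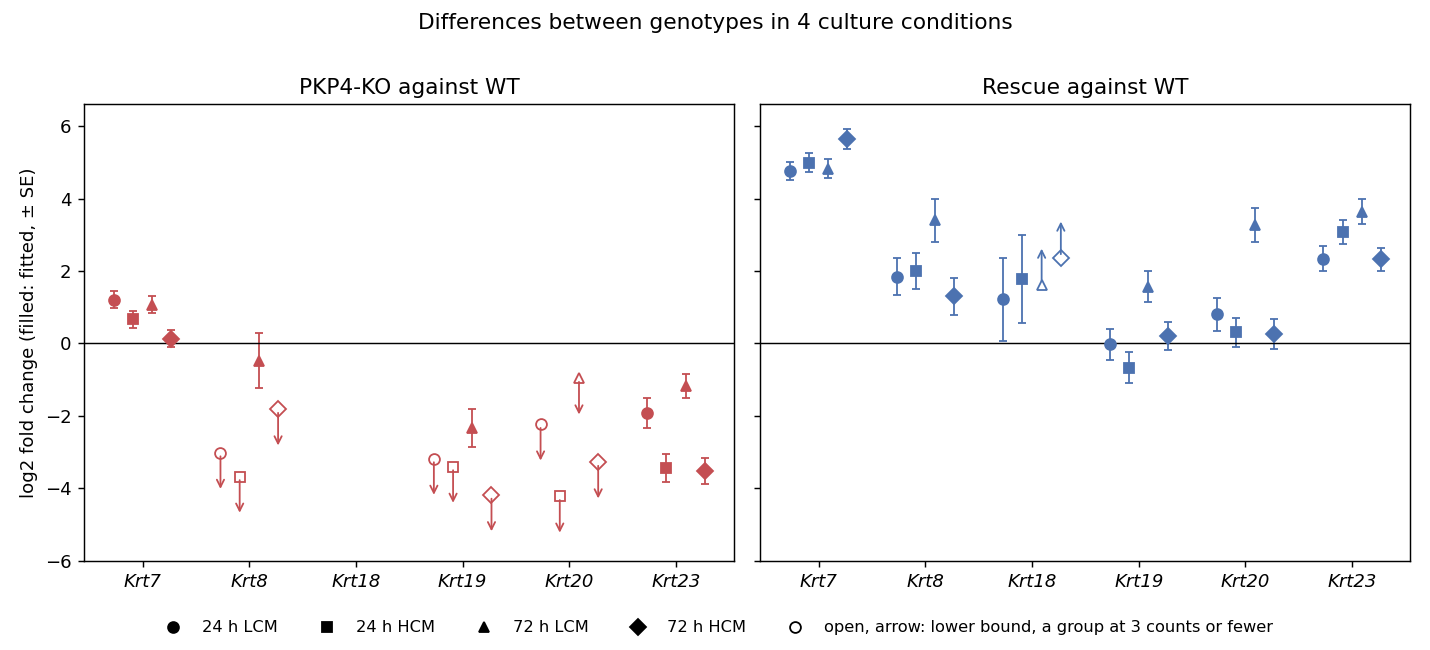
Log2 fold change of each simple-epithelium keratin in PKP4-KO (left) and Rescue (right) against WT, by culture condition; filled points are fitted values with their SE, and open points with an arrow are lower bounds where all libraries of 1 group had 3 counts or fewer. Krt7 of Rescue lies between 4.76 and 5.65 in all 4 conditions, and Krt19 and Krt20 of Rescue lie above 1 only at 72 h LCM; comparisons in which neither a fitted value nor a bound could be given are left out.

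Krt20 and Krt23 were higher in HCM than in LCM in WT cells at both times. In WT at 24 h, 2 of the 6 keratins were called between HCM and LCM, Krt20 (3.85-fold, adjusted p = 0.00298) and Krt23 (3.87-fold, adjusted p = 0.000148), where 14.2% of tested genes were called by edgeR's quasi-likelihood test. In WT at 72 h, 5 of the 6 rose, where 21.4% of tested genes were called and 10.6% were called higher in HCM. Krt7 rose 2.02-fold, Krt8 6.21-fold, Krt19 6.76-fold, Krt20 9.88-fold and Krt23 6.06-fold. In this order, the adjusted p-values were 0.00244, 0.00304, 2.2e-05, 9.09e-06 and 7.27e-07 in the same test. With only the groups compared in the fit, the calls of Krt7 and Krt8 at 72 h were lost (adjusted p = 0.0566 and 0.0639). Without WT replicate 2 at 72 h LCM, the log2 fold change of Krt8 moved from 2.53 to 3.75. Krt18 was called in neither. Krt7 at 24 h, with a log2 fold change of 0.43 ± 0.23, was called without WT replicate 3 in LCM (0.79, adjusted p = 0.0313, same test).

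In PKP4-KO, none of the 6 was called between HCM and LCM at 24 h or at 72 h by edgeR, where 2.83% and 32.6% of tested genes were called, and 0 had an unadjusted p under 0.05. DESeq2 called neither Krt7 nor Krt23. Krt23 was at 0.899 ± 0.0289 CPM in HCM and 0.652 ± 0.184 in LCM at 24 h (log2 fold change 0.44 ± 0.46), and at 5.36 ± 0.673 and 4.52 ± 3.90 CPM at 72 h (0.24 ± 0.35). Without PKP4-KO replicate 1 at 72 h LCM, the latter became 1.23 (adjusted p = 0.00145, edgeR's quasi-likelihood test). Without TMM factors it turned to -0.45. Krt8, Krt18, Krt19 and Krt20 were at or near the floor in both media, and no fold is given.

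In Rescue at 24 h, HCM libraries were higher than LCM libraries for Krt7 1.58-fold (adjusted p = 0.0433), Krt20 2.72-fold (adjusted p = 0.0237) and Krt23 6.50-fold (adjusted p = 9.35e-07, edgeR's quasi-likelihood test). Of all tested genes, 12% were called there and 6.0% were called higher in HCM. The call of Krt7 was lost in each of the 6 fits without 1 library of the groups compared (adjusted p from 0.0814 to 0.130). That of Krt20 was lost without replicate 1 or 2 of either group (adjusted p from 0.0630 to 0.109). In Rescue at 72 h, Krt7 rose 3.58-fold (adjusted p = 4.43e-07), Krt19 2.61-fold (adjusted p = 0.0114) and Krt23 2.44-fold (adjusted p = 0.00257, same test). Here 24.9% of tested genes were called and 13.0% were called higher in HCM. The call of Krt19 was lost without LCM replicate 3 (adjusted p = 0.0606). Krt20, at 4.48 ± 0.531 CPM in HCM and 3.69 ± 0.830 in LCM, did not pass the threshold (adjusted p = 0.63).

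The response to calcium itself was compared between genotypes through an interaction term. The term between PKP4-KO and WT is built from the contrast known beforehand and is given without p-values. At 72 h, the response of PKP4-KO was below that of WT by 2.36 ± 0.47 (SE) on the log2 scale for Krt23. This was one of 2 members called, where 5.74% of tested genes were called by edgeR's quasi-likelihood test. Without PKP4-KO replicate 1 at 72 h LCM the difference was -1.37, and with only the groups compared in the fit the call was lost (-2.29). The other call was Krt19, for which no size is given, because PKP4-KO held 1, 1 and 8 counts in LCM and 0, 1 and 0 in HCM, too few to measure its response. It was lost without the library with 8 counts. For Krt7 the difference of PKP4-KO from WT, -0.94 ± 0.34, passed the threshold without WT replicate 1 at 72 h LCM (-1.31) and without TMM factors (-1.33). The response of Rescue at 72 h was below that of WT by 3.0 ± 0.62 for Krt20 (adjusted p = 0.00143), with 4.48 ± 0.531 CPM in HCM and 3.69 ± 0.830 in LCM in Rescue against 3.75 ± 0.483 and 0.380 ± 0.133 in WT. For Krt23 it was lower by 1.31 ± 0.44 (adjusted p = 0.0411), where 14.6% were called in the same test. The Krt23 call was lost in 9 of the 12 fits without 1 library (adjusted p from 0.0611 to 0.112). The difference of Rescue from WT at 72 h did not pass the threshold for Krt8 (-2.10 ± 0.78, adjusted p = 0.0677) and Krt7 (0.82 ± 0.32, adjusted p = 0.0816). Krt8 was called with DESeq2 (adjusted p = 0.0190) and without Rescue replicate 1 or WT replicate 2 in LCM (-2.28 and -3.32), and Krt7 without TMM factors (1.26) and without WT replicate 3 in LCM (1.02). At 24 h, no member was called in either interaction by edgeR, where 4.02% and 0.0662% of tested genes were called. For Rescue, an unadjusted p under 0.05 was reached by 0 members, and DESeq2 called none of the 5 members other than Krt18. For PKP4-KO, DESeq2 called neither Krt7 nor Krt23. Nothing is read from calls or missing calls for PKP4-KO, because that term is built from the contrast known beforehand. Krt20 held 0, 2 and 0 counts in LCM and 0, 0 and 0 in HCM in PKP4-KO, too few to measure its response. The differences of Krt23 were -1.51 ± 0.58 for PKP4-KO and 0.74 ± 0.46 for Rescue.

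**Figure D4:**
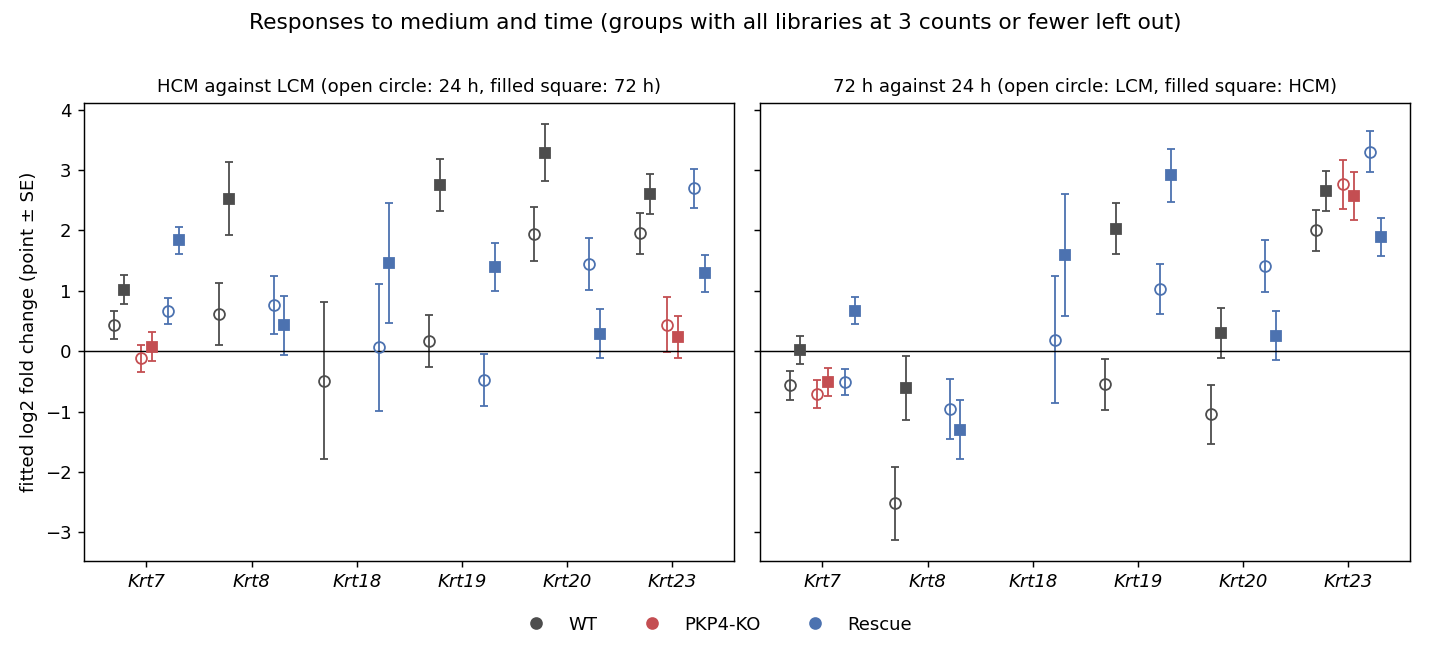
Fitted log2 fold change, with SE, of the 6 simple-epithelium keratins between HCM and LCM (left) and between 72 h and 24 h (right), coloured by genotype; comparisons with a group in which all libraries had 3 counts or fewer are left out. Krt23 rose with time in all genotypes by 1.90 to 3.31, whereas with calcium it rose by 1.29 to 2.69 in WT and Rescue and had values of 0.44 and 0.24 in PKP4-KO.

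Krt23 was higher at 72 h than at 24 h in every genotype and medium. From 24 h to 72 h, Krt23 rose 4.01-fold in WT in LCM and 6.28-fold in HCM, 6.93- and 5.97-fold in PKP4-KO, and 9.92- and 3.73-fold in Rescue, with adjusted p-values between 2.59e-08 and 0.000225 in edgeR's quasi-likelihood test. Without PKP4-KO replicate 1 at 72 h LCM, the log2 fold change of PKP4-KO in LCM moved from 2.77 to 1.77, and without TMM factors that in HCM moved from 2.57 to 1.49. The other members moved in single comparisons. In WT, Krt8 was 6.20-fold lower at 72 h in LCM (adjusted p = 0.00625, same test), a call lost without replicate 2 at 24 h LCM (-1.79 instead of -2.52 on the log2 scale, adjusted p = 0.0813). Without replicate 2 at 72 h LCM it was -3.74. Krt7 in LCM, at -0.57 ± 0.24, was called without WT replicate 1 at 72 h (-0.91, adjusted p = 0.0229, same test). Krt19 was 4.10-fold higher in HCM (adjusted p = 0.000997). With Krt23, this made 2 of 6 members called in each medium of WT, where 9.96% of tested genes were called in LCM and 17.9% in HCM.

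In PKP4-KO, 3 of 6 members were called over time in LCM (Krt7, Krt19 and Krt23) and 1 of 6 in HCM (Krt23), where 26.2% and 55.8% of tested genes were called. Krt7 fell by 0.71 on the log2 scale in LCM (adjusted p = 0.0223, edgeR's quasi-likelihood test), and the call was lost without replicate 1 or 3 at 24 h or replicate 2 or 3 at 72 h, with adjusted p-values from 0.0537 to 0.111. The call of Krt19 in LCM rested on counts of 1, 1 and 8 against 0, 1 and 0 and was lost without replicate 3 of either time. Krt7 in HCM, at -0.51 ± 0.24, was called without replicate 3 of either time (-0.66 and -0.73, adjusted p = 0.0282 and 0.0256, same test) and without TMM factors (-1.58, adjusted p = 5.81e-06). In Rescue, 2 of 6 were called in LCM (Krt20, 2.67-fold higher, and Krt23) and 3 of 6 in HCM (Krt7, 1.60-fold higher, Krt19, 7.56-fold higher, and Krt23), where 9.81% and 24.3% of tested genes were called. The adjusted p-values were 0.032 for Krt20, 0.0221 for Krt7 and 1.01e-05 for Krt19 in the same test. The call of Krt20 was lost in 5 of 6 fits without 1 library (adjusted p from 0.0555 to 0.140), all but the one without replicate 1 at 72 h. That of Krt7 was lost in 4 of 6 (adjusted p from 0.0530 to 0.0718), without replicate 2 or 3 at 24 h or replicate 1 or 3 at 72 h. Krt8 in Rescue HCM, at -1.30 ± 0.49 (adjusted p = 0.0513), was called with DESeq2 (adjusted p = 0.00884) and with only the groups compared in the fit (adjusted p = 0.000178).

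Levels of different genes were compared per kilobase of exon length. Krt23 led in all 4 WT groups, with 1.63 ± 0.254, 6.30 ± 0.770, 6.53 ± 2.14 and 39.6 ± 1.79 CPM per kb at 24 h LCM, 24 h HCM, 72 h LCM and 72 h HCM. At 24 h LCM, Krt19 (0.819), Krt7 (0.715), Krt8 (0.693) and Krt20 (0.409 CPM per kb) followed in an order in which the libraries of neighbours overlapped up to Krt20, and Krt18 (0.106) was last in all WT groups. In PKP4-KO, Krt7 led at 24 h, with 1.66 ± 0.298 CPM per kb in LCM and 1.52 ± 0.279 in HCM, and Krt23 led at 72 h, with 2.89 ± 2.49 and 3.43 ± 0.430. The other 4 members each lay below 0.3 CPM per kb in every PKP4-KO group. In Rescue, Krt7 led at 24 h LCM with 19.5 ± 1.02 CPM per kb, and Krt23 in the other 3 groups with 53.2 ± 16.6, 81.2 ± 0.994 and 198 ± 8.56. These orders depend on the lengths used, which are given below. Without length scaling, Krt7 had the higher mean CPM in several groups led by Krt23. These were Rescue at 24 h HCM (217 against 83.2) and 72 h HCM (346 against 310). So were PKP4-KO at 72 h LCM (7.13 against 4.52) and HCM (7.52 against 5.36), and WT at 24 h LCM (5.04 against 2.55). In Rescue at 72 h LCM, Krt23 stayed first (127 against 96.8).

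Across groups, each of the 6 keratins had its highest mean level in a Rescue group, Krt8 at 24 h HCM (8.28 ± 0.678 CPM) and the other 5 at 72 h HCM. For Krt19, this group overlapped with WT at 72 h HCM (8.07 ± 1.28 against 7.03 ± 2.70 CPM), and for Krt20 the 5 highest groups formed a chain in which neighbours overlapped, from Rescue at 72 h HCM to WT at 24 h HCM (4.48 ± 0.531 to 3.04 ± 0.371 CPM). For Krt7, the 4 Rescue groups were separated from each other and from the rest, and the 8 WT and PKP4-KO groups overlapped with their neighbours in order.

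Summed over the 6 keratins, the level was 31.9 ± 0.645, 91.0 ± 17.8, 100.1 ± 2.58 and 257 ± 10.6 CPM per kb in Rescue at 24 h LCM, 24 h HCM, 72 h LCM and 72 h HCM. It was 4.37 ± 1.24, 10.9 ± 0.817, 7.89 ± 2.43 and 47.0 ± 2.80 in WT and 2.15 ± 0.126, 2.17 ± 0.194, 4.15 ± 2.59 and 4.81 ± 0.187 in PKP4-KO. The 6 simple-epithelium keratins made up 0.0955% to 0.926% of the summed level per kb of all 22 keratins in the Rescue groups, 0.0130% to 0.0827% in WT and 0.00511% to 0.00650% in PKP4-KO. The denominator moved too: at 72 h HCM the 16 stratified keratins summed to 27453 ± 242 CPM per kb in Rescue, 57006 ± 6367 in WT and 94024 ± 2103 in PKP4-KO.

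The 2 types were not balanced. The 4 type I members reached 206 ± 7.94 CPM per kb in Rescue at 72 h HCM against 50.9 ± 2.67 for the 2 type II members, a ratio of type II to type I of 0.247 ± 0.00376. In WT the ratio ranged from 0.0372 ± 0.00899 at 72 h HCM to 0.471 ± 0.140 at 24 h LCM. It was above 1 only at 24 h in PKP4-KO (4.01 ± 1.54 in LCM and 2.45 ± 0.625 in HCM) and at 24 h LCM in Rescue (2.26 ± 0.539). These sums depend on the lengths used. The deposited length of Krt7 is 7049 bp, the union of all its transcripts, while the canonical transcript has 4094 bp, with which the ratio at 24 h HCM in Rescue becomes 1.1 ± 0.381 instead of 0.674 ± 0.232. Krt23 was counted on 1565 bp, whereas the annotation used here gives it 3492 bp, a length with which no sums were made. Krt7 and Krt23 together made up 55.7% to 88.4% of the summed level in WT, 86.7% to 96.4% in Rescue and 91.8% to 96.2% in PKP4-KO. Without them, Krt8, Krt18, Krt19 and Krt20 summed to 0.880 to 6.43 CPM per kb in WT, 4.26 to 9.18 in Rescue and 0.0760 to 0.316 in PKP4-KO.

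**Figure D5:**
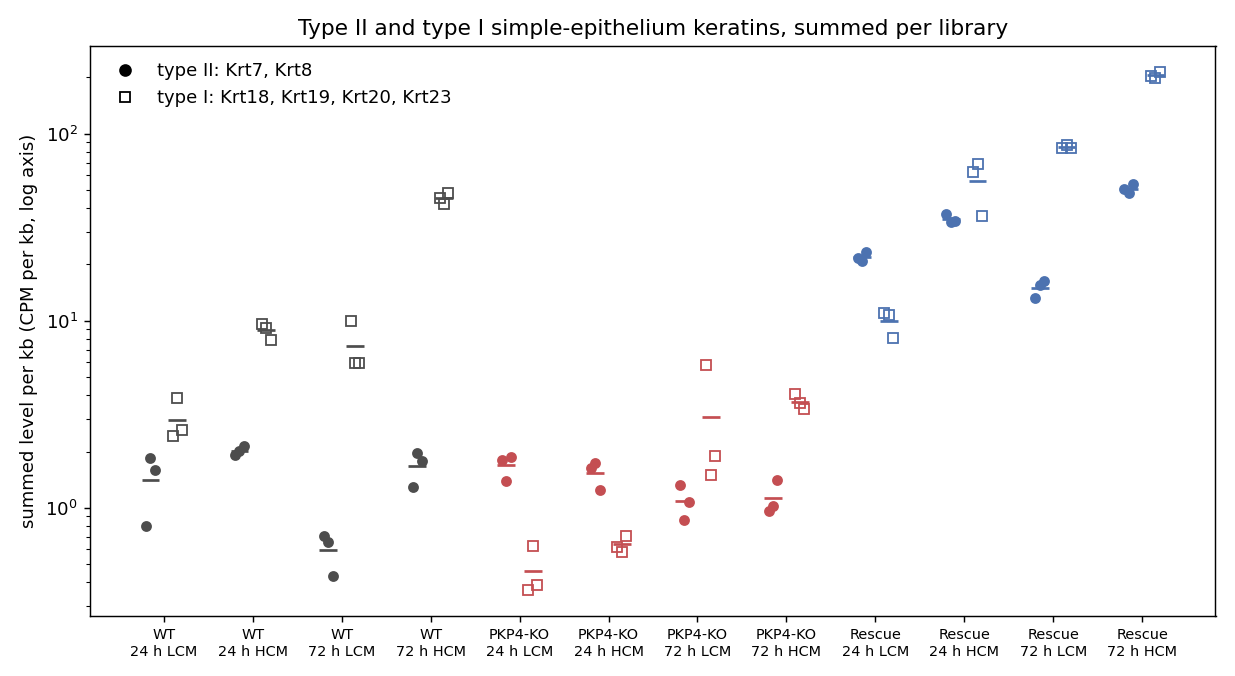
Summed level of the type II (Krt7, Krt8; filled circles) and type I (Krt18, Krt19, Krt20, Krt23; open squares) simple-epithelium keratins in every library, in CPM per kb on a log axis, by group; lines are means of 3. With the deposited lengths shown here, the mean of type II exceeds that of type I only in PKP4-KO at 24 h and in Rescue at 24 h LCM. Both sums are highest in Rescue at 72 h HCM.

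The other genes of these filaments and of simple epithelia were followed as lists. Of the 16 keratins of stratified epithelium, 13 were tested. Between Rescue and WT, 6 were called higher and 0 lower at 24 h LCM, 2 and 1 at 24 h HCM, 5 and 3 at 72 h LCM and 2 and 7 at 72 h HCM, with median log2 fold changes of 0.56, -0.11, 0.13 and -0.66. Between PKP4-KO and WT the counts were 6 and 6, 4 and 8, 9 and 0, and 8 and 2, with medians of 0.10, -0.96, 0.72 and 0.70. The median of all tested genes lay between -0.07 and 0.06 in these 8 comparisons. Of all tested genes, 13.5%, 11.8%, 17.9% and 19.5% were called higher and 11.4%, 11.4%, 14.6% and 16.7% lower between Rescue and WT in these conditions, and 19.7%, 20.7%, 21.3% and 21.9% higher and 20.6%, 22.2%, 23.8% and 29.9% lower between PKP4-KO and WT. These shares stand beside the counts of every list that follows. Krt4, a type II keratin of internal stratified epithelia, was the one of them with the largest log2 fold change between Rescue and WT at 72 h LCM, 5.13.

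Of 14 genes that accompany keratins in simple epithelia, 9 were tested. Between Rescue and WT, 3 were called higher and 0 lower at 24 h LCM, 2 and 4 at 24 h HCM, 6 and 0 at 72 h LCM and 2 and 1 at 72 h HCM (median log2 fold changes 0.26, -0.40, 1.07 and 0.09). Between PKP4-KO and WT the counts were 2 and 4, 0 and 8, 2 and 4, and 1 and 4 (medians -0.58, -0.95, -0.46 and -0.02). Elf5, a transcription factor of glandular epithelia, had log2 fold changes between Rescue and WT of 2.20, 1.74, 4.71 and 1.91 in the order used above. Epcam, a cell-surface adhesion protein of simple epithelia, had 410 to 543 counts in WT, 57 to 148 in PKP4-KO and 318 to 576 in Rescue at 24 h LCM. For Epcam, Rescue and WT libraries thus overlapped there, and those of PKP4-KO lay below both. Claudin genes differed among themselves: Cldn4 had 1527 to 1692 counts in WT at 24 h LCM, whereas Cldn7 had at most 3 counts in any library.

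Among 8 proteins that link keratin filaments to junctions or regulate them, all were tested, and between Rescue and WT 1 was called higher and 0 lower at 24 h LCM, 0 and 0 at 24 h HCM, 1 and 2 at 72 h LCM and 0 and 2 at 72 h HCM (medians 0.13, 0.02, 0.04 and -0.15). Between PKP4-KO and WT the counts were 1 and 3, 1 and 4, 1 and 3, and 3 and 2 (medians -0.47, -0.35, -0.34 and -0.35). Of 8 other intermediate filament genes, such as Vim and the lamins, 6 were tested, with 0 called higher and 3, 1, 0 and 0 lower between Rescue and WT (medians -0.68, -0.24, -0.07 and -0.29). Between PKP4-KO and WT the counts were 2 and 2, 2 and 2, 0 and 1, and 0 and 2 (medians -0.60, 0.38, -0.34 and -0.08). Of 10 intestinal and urothelial genes, 4 were tested, and 1 was called lower and 0 higher between Rescue and WT in each condition (medians -0.22, 0.22, -0.02 and -0.29). The counts between PKP4-KO and WT were 1 and 1, 1 and 1, 1 and 1, and 2 and 1 (medians 0.05, 0.83, 0.65 and 1.5).

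From that last list, Cdx2 and Upk1b went opposite ways in PKP4-KO. Cdx2, a transcription factor of intestinal epithelium, had 231, 305 and 331 counts in PKP4-KO at 24 h LCM, against 0, 2 and 1 in WT and 3, 2 and 7 in Rescue. Upk1b, a uroplakin of the urothelial surface, had 207, 224 and 245 counts in WT, against 42, 28 and 18 in Rescue and 3, 4 and 3 in PKP4-KO under the same condition. Cdx1, Cdh17 and Upk3a were at 0 in all libraries.

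Markers of other cells that could hold these keratins were counted in the same libraries. The 7 keratinocyte markers summed to 26026 to 72221 CPM in every library, from 36150 to 63273 in WT, 41764 to 72221 in PKP4-KO and 26026 to 43098 in Rescue. At 72 h HCM, where 5 of the 6 keratins had their highest mean level, in Rescue, they were separated, with 26026 to 26630 CPM in Rescue, 50739 to 58894 in WT and 56405 to 62001 in PKP4-KO. Of the 8 Merkel cell markers, whose cells carry Krt8, Krt18 and Krt20, the defining transcription factor Atoh1 was at 0 in all 36 libraries, and 5 were tested. The 8 summed to 9.63 to 60.5 CPM in WT, 8.14 to 43.4 in PKP4-KO and 22.5 to 48.4 in Rescue. Over the 4 conditions those ranges overlap, but at 72 h HCM Rescue, with 34.5 to 48.4 CPM, lay above WT (9.63 to 19.2) and PKP4-KO (8.14 to 10.6). Between Rescue and WT, 0, 0, 1 and 2 of the 5 were called higher and 3, 0, 0 and 0 lower, and between PKP4-KO and WT 0, 2, 1 and 1 higher and 3, 0, 0 and 1 lower, in the order of conditions used above. Their part in the levels of Krt8, Krt18 and Krt20 was not tested beyond this.

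The 4 sebaceous and sweat gland markers, 1 of which (Krt79) is also among the stratified keratins, summed to 0.911 to 24.4 CPM in WT, 28.1 to 60.6 in PKP4-KO and 2.55 to 23.0 in Rescue, so that PKP4-KO was highest. The 7 melanocyte markers summed to 0.700 to 3.29 CPM in WT, 0.850 to 2.01 in PKP4-KO and 2.06 to 6.67 in Rescue, with Tyr at 0 throughout. The 7 fibroblast markers summed to 0.153 to 9.41, 0 to 4.50 and 0.221 to 11.5 CPM, the 4 endothelial markers to 2.36 to 5.41, 0.581 to 5.37 and 2.53 to 4.40 CPM, and the 5 leukocyte and Langerhans cell markers to 0 to 0.641, 0.0466 to 3.55 and 0 to 3.64 CPM, in WT, PKP4-KO and Rescue. At 72 h HCM, melanocyte markers were at 4.32 to 6.67 CPM in Rescue, 1.64 to 3.29 in WT and 1.14 to 1.74 in PKP4-KO, and fibroblast markers at 4.87 to 6.62, 0.410 to 1.53 and 0 to 0.908, so that Rescue was separated from both for each list. Cd207, which defines Langerhans cells, was at 0 in all libraries. The part of these cells in the keratin levels was not tested.

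The genes most like each keratin were taken as the 5 tested protein-coding genes with the highest Pearson correlation over the 12 group means of log2 CPM, a description that rests on 12 points with shared libraries. For Krt7 these were Nup62cl (r = 0.98), Lzts2 (0.97), Kdm5d (0.97), Il11ra1 (0.97) and Ddx3y (0.96), of which Kdm5d and Ddx3y lie on the Y chromosome. For Krt20 they were Havcr2 (0.98), Spaca6 (0.97), Pla1a (0.97), Gpr137b (0.97) and Slc44a2 (0.96), and for Krt23 Cxcr2 (0.97), Cpa4 (0.96), C2cd2 (0.96), Tfcp2l1 (0.96) and Arhgef10l (0.96). For Krt8, Rbms1 (0.96), Tfpi, Samd12, Ckap4 and Naip2 (0.94 each) came first, for Krt19 Inpp4a, Dap, Nsmf, Kmt5a and Cited2 (0.95 to 0.96), and for Krt18, with its low counts, Grin1, Arfgef3, Col26a1, Stbd1 and Apobr (0.89 to 0.92). None of the 30 was another keratin. Among the 6 themselves, r was highest for Krt19 with Krt20 (0.93) and Krt8 with Krt20 (0.91) and lowest for Krt18 with Krt19 (0.39). Krt8, Krt19 and Krt20 were at or near the floor in PKP4-KO, so that these groups alone can raise the r between them. Likewise, Krt7 was far higher in Rescue than elsewhere, and Kdm5d and Ddx3y were at or near 0 outside Rescue. The step to Rescue alone can thus raise the r of Krt7 with such genes. The classic pair Krt8 and Krt18 had r = 0.58.

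Genes around the keratins were described by the median log2 fold change within 2 Mb. Such a median says little about single genes, and a cause in the region was not tested. For the 81 tested genes around Krt7 it was 0.14 between Rescue and WT at 24 h LCM and 0.36 at 72 h HCM. Over all of chromosome 15 it was 0.17 and 0.20. Around Krt20 (95 genes) and Krt23 (98 genes), the medians between PKP4-KO and WT at 24 h HCM were -0.01 and 0.00. At 72 h HCM they were 0.24 and 0.29. Over all of chromosome 11 the median was -0.01 at 24 h HCM and -0.07 at 72 h HCM. The antisense genes and the pseudogene of the keratins that were counted had few reads of their own. Stray reads from the 16 stratified keratins, which summed to 53328 to 190305 CPM per library, were not examined. The antisense genes Gm671 of Krt7 and Gm36026 of Krt8 had 14 and 3 reads in all 36 libraries, and the pseudogene Krt8.ps had 13. The antisense gene Gm73150 of Krt19, with 329 bp of shared exon, is in the annotation used here but was not among the counted genes, and the strand setting of the counting is not given in the sources used here.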

How the data were processed

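RNA of 36 keratinocyte cultures was sequenced as strand-specific, paired-end poly(A) libraries. The authors aligned the reads to GRCm39 (mm39) with an added GFP-PKP4 sequence using HISAT2 2.1.0 and SAMtools 1.10 and counted them per gene with featureCounts 2.0.0. The deposited values are raw counts of reads per gene, 55358 genes, not normalized. Replicate libraries were not pooled, and the strand setting of the counting is not given in the sources used here. Each library's depth sets its floor of 3 counts.

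The members and the gene lists were chosen with earlier results of these data known. Counts were filtered with filterByExpr (15114 genes kept), scaled with TMM factors and fitted over all 12 groups with edgeR 4.0.16 (R 4.3.3, glmQLFit and glmQLFTest, 24 residual degrees of freedom), without a replicate block. P-values are two-sided and adjusted by the Benjamini-Hochberg method over all tested genes, with a threshold of 0.05. Folds are ratios of group means of TMM-scaled CPM, or lower bounds against 3 counts per library for groups with no library above 3 counts. Levels per kb used the deposited gene lengths. An exact permutation test of 3 against 3 libraries cannot go below p = 0.1 and was not used. Named genes were the 6 members, the 5 protein-coding genes most like each in log2 CPM (prior count 2), and genes of the lists; the list genes given with values were picked after their values were seen.

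Libraries of the same group differed from each other by more than counting noise (chi-square per gene 7.03 to 266), so that all were kept as separate libraries. In simulated counts for PKP4-KO against WT at 24 h HCM (13528 genes, 200 of them changed), the procedure recovered 51% of genes with a log2 change of 1 and 97% with a log2 change of 2, with 6 false calls among 154. All simulated libraries had the mean profile of WT at 24 h HCM and a common spread for all genes. The changed genes were drawn above a minimum level. In the data, 42.8% of tested genes were called in this comparison. These rates thus hold for the simulated setting and not for members at or near the floor. Each library was left out in turn, and other settings were a replicate block, a fit to the compared groups alone, a minimum of 10 counts in all libraries, no filter, no TMM factors, DESeq2 1.42.0 (own size factors), other scalings of the summed levels and, chosen after seeing the data, the canonical length of Krt7. Promoter sequences of the members and of all promoters searched were read from the GRCm39 genome with the GENCODE annotation, which is not the annotation of the deposited counts.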

Additional observations from a re-analysis of the deposited data

Results flagged for a closer look

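The response to added calcium at 72 h differed between Rescue and WT for Krt20, by a test of the difference itself (edgeR's quasi-likelihood test). For Krt23, differences passed the threshold in the main fit but not in all other fits. Krt23 had a difference of -2.36 on the log2 scale between PKP4-KO and WT, given without a p-value because the contrast was known beforehand. Nothing is read from that call. It was -1.37 without PKP4-KO replicate 1 at 72 h LCM, and with only the groups compared in the fit it no longer passed the threshold (-2.29). Krt20 responded less in Rescue than in WT by -3.0 (adjusted p = 0.00143), with 85, 63 and 63 counts in LCM and 110, 106 and 89 in HCM in Rescue against 8, 6 and 11 and 58, 60 and 42 in WT. Krt23 responded less in Rescue than in WT by -1.31 (adjusted p = 0.0411), while its level was higher in Rescue in both media. This last call was lost in 9 of 12 fits without 1 library and without TMM factors (-0.88). WT libraries differed from the others in Xist (350 counts or more against at most 37) and Rescue libraries in the Y-linked genes (37 to 238 counts against at most 12), and the part of this in the responses was not tested.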

How the results depend on the processing

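Without TMM factors the median log2 fold change of all tested genes shifted, to -0.83 between PKP4-KO and WT and 1.37 between Rescue and PKP4-KO at 72 h HCM, and 5 values turned sign: Krt7 between PKP4-KO and WT at 72 h HCM (-0.63), Krt7 and Krt23 between HCM and LCM in PKP4-KO at 72 h (-0.61 and -0.45), Krt19 between HCM and LCM in WT at 24 h (-0.12) and Krt7 over time in WT HCM (-0.22). With only the groups compared in the fit, Krt19 between Rescue and WT at 24 h LCM became 0.0054, and 2 instead of 4 differences of the calcium response were called, the 4 including Krt19 in PKP4-KO, whose counts were at the floor. With 1 library left out, values that turned sign ranged from -0.99 to 0.74 for Krt8 and from -0.091 to 0.23 for Krt7 between PKP4-KO and WT (72 h LCM and 72 h HCM), and from -0.32 to 0.28 for Krt19 between Rescue and WT at 24 h LCM. Between HCM and LCM they ranged from -0.10 to 0.47 for Krt19 in WT at 24 h, and in PKP4-KO from -0.26 to 0.0237 (24 h) and -0.14 to 0.24 (72 h) for Krt7 and from -0.10 to 1.23 for Krt23 at 72 h. For Krt7 over time in WT HCM they ranged from -0.0424 to 0.15, and for the 24 h calcium response of Rescue against WT from -0.13 to 0.42 (Krt7) and -0.57 to 0.54 (Krt8).

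Of 24 comparisons of a member between 2 genotypes, 19 were called for PKP4-KO against WT, 15 for Rescue against WT and 20 for Rescue against PKP4-KO, and with 1 library left out 18 to 19, 14 to 16 and 20 to 22. By condition, 40.2% to 51.8%, 23.2% to 36.2% and 33.7% to 66.7% of all tested genes were called in these contrasts. Calls of Krt18 and of the contrast known beforehand are included in these counts, and nothing is read from either. Of 36 comparisons each, 13 were called for calcium (11 to 14) and 13 for time (11 to 17), and 4 of 24 for the difference of the calcium response (3 to 5). Of all tested genes, 2.83% to 32.6%, 9.81% to 55.8% and 0.0662% to 14.6% were called in the single comparisons of these sets. With at least 10 counts in every library, Krt7 was the only member left, and the calls were 3, 4, 4, 3, 2 and 0 in the same order. The replicate numbers did not pair the libraries in most comparisons: every same-number pair had r over 0.1 in 2 of 24 comparisons, and 22 of 72 pairs correlated best with their own number. In HCM against LCM of WT at 24 h, each library did correlate best with its own number (r from 0.35 to 0.48). The other of the 2 was Rescue against PKP4-KO at 72 h LCM (r from 0.30 to 0.72). A replicate block left 125 single values on the same side of the threshold and moved 2 past it, Krt8 between Rescue and WT at 72 h HCM (1.37) and over time in Rescue HCM (-1.30). DESeq2 left 124 on the same side and moved 3 past the threshold.

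Relative to Rescue at 72 h HCM, the summed level per kb was 4.25%, 3.08% and 18.3% in WT at 24 h HCM, 72 h LCM and 72 h HCM, 0.839%, 0.847% and 1.88% in PKP4-KO at 24 h LCM, 24 h HCM and 72 h HCM, and 12.4%, 35.5% and 39.0% in Rescue at 24 h LCM, 24 h HCM and 72 h LCM. In CPM without length scaling and TMM factors these were 3.12%, 2.1%, 9.0%, 1.71%, 1.63%, 0.883%, 23.1%, 45.0% and 31.5%. With the canonical Krt7 length they moved to 16.3% in WT at 72 h HCM, 1.15% and 1.12% in PKP4-KO at 24 h LCM and HCM, and 15.7% and 37.7% in Rescue at 24 h and 72 h LCM. Depth limits Krt18 in WT and PKP4-KO and Krt8, Krt19 and Krt20 in PKP4-KO, where most libraries had 3 counts or fewer.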
